A study of Mus musculus with 12 samples.

Results

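The genes described here make, remove and transport adenosine or break down the cyclic AMP that adenosine raises, in regulatory T cells from lymph nodes. They were chosen by symbol from 9 named genes, of which 7 had a row among the 19505 genes tested: Entpd1, Nt5e, Ada, Adk, Slc29a1, Pde3b and Pde4b. The receptor gene Adora2a and the phosphodiesterase gene Pde4d had no row named for them and were not analysed here. Cells labelled CD4+ CD8- CD25+ with low CD45RB were sorted out of the lymph nodes of female mice aged 4 to 8 weeks, 1 mouse to an array; antibodies to CD4, CD8 and CD45RB are the ones named for the sort. Of the 12 arrays, 6 came from NOD mice, numbered 1 to 6, whose strain is known for spontaneous autoimmune diabetes. The other 6 were from NOD.Drak2-/- mice, which lack the kinase Drak2 encoded by Stk17b on the same background, and are numbered 1 to 5 and 7. The labels give no further allele, agent or treatment for either group and do not say how Drak2 was deleted.

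Extracellular adenosine is a suppressive signal that regulatory T cells are known to produce. The surface enzyme CD39 (Entpd1) strips phosphates from ATP and ADP to leave AMP, and the surface enzyme CD73 (Nt5e) turns AMP into adenosine. Adenosine binds receptors on the T cell that raise cyclic AMP, which activates protein kinase A and the CREB factors and dampens T cell receptor signals. The signal ends when adenosine is deaminated by Ada, taken up through Slc29a1 and phosphorylated by Adk, or when phosphodiesterases hydrolyse cyclic AMP.

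CREB factors bind the cyclic AMP response element, whose core is TGACG on either strand, so the members' promoter windows were searched for it to show where the letters lie. RefSeq windows of 300 bases (GRCm38.p6, 250 before and 50 after a start site) were at hand for 6 of the 7 members, with none for Pde3b. The core was present in 5 of their 18 windows (27.8%), beside 20.8% of all 32851 windows, and the full element TGACGTCA, which contains the core on each strand, was in 0 of the 18 and in 1.79% of all. Entpd1 held the core in both of its windows, Adk in 1 of 2, Pde4b in 1 of 4 and Slc29a1 in 1 of 8, some of which overlap. The 61-base stretches around each core follow in gene orientation, with the core in capitals; a match is a description of letters and not a binding site.
Entpd1 first start site, chr19:40612203-40612263, plus strand: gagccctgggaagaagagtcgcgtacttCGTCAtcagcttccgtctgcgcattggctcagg
Entpd1 second start site, chr19:40659559-40659619, plus strand: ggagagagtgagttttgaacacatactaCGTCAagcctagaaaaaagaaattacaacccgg
Pde4b, chr4:102421493-102421553, plus strand: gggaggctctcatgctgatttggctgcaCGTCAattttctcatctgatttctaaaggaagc
Adk, chr14:21052534-21052594, plus strand: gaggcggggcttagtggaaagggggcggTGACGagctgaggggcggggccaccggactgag
Slc29a1, chr17:45593678-45593738, minus strand: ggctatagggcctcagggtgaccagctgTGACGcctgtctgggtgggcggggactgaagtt
The windows of Nt5e and Ada did not contain these letters. The arrays give 1 value per gene and do not tell which start site was used.

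The values are log2 expression values from the authors' deposited table. Array medians over all genes lay between 5.18 and 5.34 (log2). Background is given by 23 background control rows of the array, the brightest of which averaged 5.87 (log2), and 58.3% of genes had a mean below it. The T cell markers were bright in both genotypes, such as Cd4 at 9.67 in NOD and 9.87 in NOD.Drak2-/- and the regulatory T cell gene Ikzf2 at 9.52 and 9.70. Foxp3 was not analysed here, and Il2ra, which encodes CD25, lay in the background range (4.82 and 5.00). Above background on average were 1 of 8 measured B cell markers (Cd79b), 1 of 9 myeloid and dendritic (Cst3), 1 of 5 endothelial (Pecam1) and 1 of 6 fibroblast markers (Col1a1), as well as 1 of 2 CD8 T cell (Cd8b1, 7.27 and 7.45) and 1 of 4 NK cell markers (Eomes, 5.84 and 6.26, unadjusted p = 0.0373, adjusted p = 0.517 in limma). Cd79b differed by 0.48 (5.89 and 6.37, unadjusted p = 0.00215, adjusted p = 0.436 in limma), with 6 of 6 NOD.Drak2-/- arrays above the NOD mean, and Cd8a lay in the background range (5.02 and 5.05). Over the 8 measured B cell markers, 4 differences were positive and 4 negative, with a median of -0.02. The mean of the B cell list per array ran from 4.81 to 5.06 in NOD and from 4.68 to 5.41 in NOD.Drak2-/-. The mean of the myeloid list ran from 4.90 to 5.26 in NOD and from 4.94 to 5.33 in NOD.Drak2-/-. Of the 9 myeloid and dendritic markers, 5 differences were positive and 4 negative, and Cst3 was at 10.46 in both genotypes. In the background range, Csf1r differed by 0.55 (4.29 and 4.84, unadjusted p = 0.00641, adjusted p = 0.469 in limma), with 6 of 6 NOD.Drak2-/- arrays above the NOD mean. Siglech differed by -0.27, also in that range (unadjusted p = 0.0383, adjusted p = 0.517 in limma). Stk17b itself gave 10.21 to 10.80 in NOD and 9.97 to 10.36 in NOD.Drak2-/-. All 6 NOD.Drak2-/- arrays lay below the NOD mean (log2 difference -0.27, unadjusted p = 0.0392, adjusted p = 0.517 in limma). The groups overlapped, so the Stk17b row does not separate every array by genotype. Where its probes lie relative to the deleted part was not analysed here.

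In each genotype all 7 measured members had a mean above that of the brightest background row, and 0 of the 7 passed the test for a difference between NOD.Drak2-/- and NOD. The comparison asks how transcript levels in these cells differ where Drak2 is missing. The test was limma with Benjamini-Hochberg adjustment over all genes and a threshold of 0.05, which 0.0205% of all genes passed (4 genes). The members' log2 differences ran from -0.28 for Adk to 0.49 for Pde3b, and their adjusted p-values from 0.504 to 0.805 in limma. At an unadjusted p under 0.05 there were 2 of 7 members, Ada and Pde3b, both with a higher mean in NOD.Drak2-/-. That level was reached by 9.43% of all genes, 3.74% being higher and 5.69% lower in NOD.Drak2-/-. Among the 8128 genes averaging above background it was reached by 9.24%, 462 being higher and 289 lower. The groups overlapped for every one of the 7 members, and 0.513% of all genes had groups that did not overlap. The members' median log2 difference was 0.23, with 4 positive and 3 negative. Over all genes the median was -0.02 and 45.9% were positive. Over the 8128 genes averaging above background, as all 7 members did, the median was 0.03 and 55.4% were positive. With each array centred on its median, the medians of the members and of all genes were 0.29 and 0.05. The members' median of 0.23 is the value of Nt5e. That value was -0.01 without NOD.Drak2-/- replicates 1 and 2, the arrays with the brightest background rows, and 0.07 with the background row as a covariate. In whole populations of sorted cells, a change in RNA per cell and a change in the share of cells that carry the RNA cannot be told apart.

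**Figure D1:**
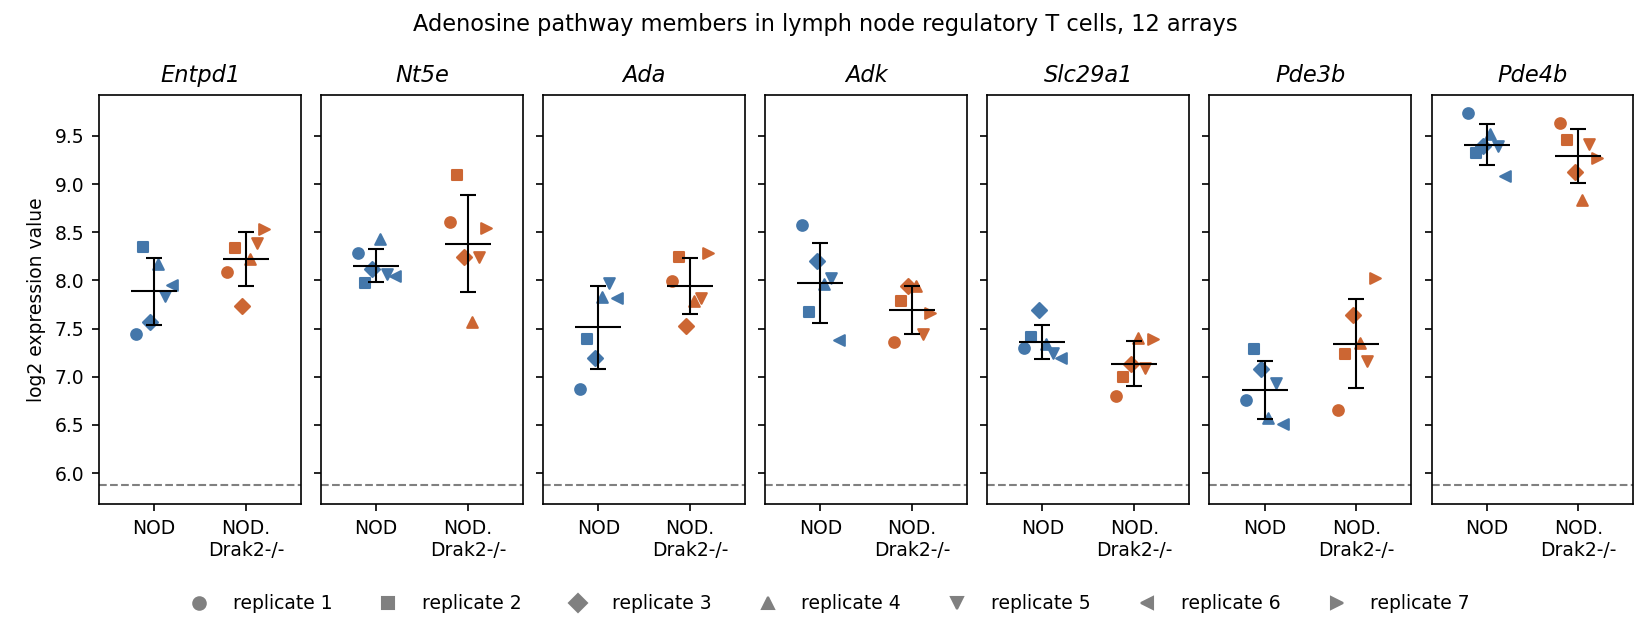
Log2 expression value (vertical axis) of the 7 measured members in each of 6 NOD and 6 NOD.Drak2-/- arrays, with a marker shape per replicate number, black lines for the mean and bars for the SD, and a dashed line at the mean of the brightest background row (5.87). Every member lies above the dashed line and its genotypes overlap; levels of different genes are not comparable, since each row has its own probes.

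The enzymes that make adenosine were both present, with somewhat higher means in NOD.Drak2-/- that did not pass the test. Entpd1, the ATP- and ADP-splitting enzyme CD39, had a lowest, median and highest log2 value of 7.44, 7.90 and 8.35 in NOD and of 7.74, 8.28 and 8.54 in NOD.Drak2-/-. The groups overlapped over most of their range, and 5 of 6 NOD.Drak2-/- arrays lay above the NOD mean. The means were 7.89 ± 0.35 and 8.22 ± 0.28 (SD, n = 6 each), a 1.26-fold difference with a 95% interval of 0.985 to 1.61 (log2 difference 0.33, SE 0.17, adjusted p = 0.544 in limma). B cells and myeloid cells are also known to carry CD39, and their part in the Entpd1 difference was not tested. The log2 difference was 0.33 both with each array's mean over the B cell markers as a covariate and with its mean over the myeloid markers, but 7 of those 8 B cell and 8 of those 9 myeloid markers lay below background.

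Nt5e, the AMP-splitting enzyme CD73, was the member whose arrays were most unequal in spread between the genotypes. Its log2 values had a lowest, median and highest of 7.97, 8.10 and 8.43 in NOD and of 7.57, 8.39 and 9.09 in NOD.Drak2-/-. The NOD.Drak2-/- arrays reached both above and below all NOD arrays, replicate 2 being the highest and replicate 4 the lowest of the 12. The means were 8.15 ± 0.17 and 8.38 ± 0.50 (SD, n = 6 each), a 1.17-fold difference with a 95% interval of 0.882 to 1.55 (log2 difference 0.23, SE 0.19, adjusted p = 0.716 in limma). The difference in spread was not tested. The log2 difference was 0.39 without NOD.Drak2-/- replicate 4 and 0.09 without replicate 2.

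Of the enzymes that remove adenosine, the deaminase and the kinase had differences of opposite sign, and neither passed the test. Ada converts adenosine to inosine, and its loss is known as a cause of severe immunodeficiency in humans. Its log2 values had a lowest, median and highest of 6.87, 7.60 and 7.98 in NOD and of 7.52, 7.90 and 8.29 in NOD.Drak2-/-. All 6 NOD.Drak2-/- arrays lay above the NOD mean, but 3 of the NOD arrays, replicates 4, 5 and 6, lay among them. The means were 7.51 ± 0.43 and 7.94 ± 0.29 (SD, n = 6 each), a 1.35-fold difference with a 95% interval of 1.02 to 1.78 (log2 difference 0.43, SE 0.19, unadjusted p = 0.0375, adjusted p = 0.517 in limma). The log2 difference was 0.27 with array weights and 0.52 without NOD replicate 5, the lowest and highest of the alternatives.

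Adk, the kinase that returns adenosine to AMP inside the cell, had a lowest, median and highest log2 value of 7.39, 7.99 and 8.58 in NOD and of 7.36, 7.72 and 7.94 in NOD.Drak2-/-. All 6 NOD.Drak2-/- arrays lay below the NOD mean, while NOD replicates 2 and 6 lay as low as they did. The means were 7.97 ± 0.41 and 7.69 ± 0.25 (SD, n = 6 each), a ratio of 0.824 with a 95% interval of 0.634 to 1.07 (log2 difference -0.28, SE 0.18, adjusted p = 0.624 in limma). Without NOD replicate 1, its highest array, the log2 difference was -0.16, and without NOD replicate 6, the lowest NOD array, it was -0.40.

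Slc29a1, the equilibrative transporter that lets adenosine cross the plasma membrane in either direction, had a lowest, median and highest log2 value of 7.19, 7.32 and 7.69 in NOD and of 6.80, 7.11 and 7.41 in NOD.Drak2-/-. In NOD.Drak2-/- 4 of 6 arrays lay below the NOD mean, and the other two, replicates 4 and 7, slightly above it. The means were 7.36 ± 0.18 and 7.14 ± 0.23 (SD, n = 6 each), a ratio of 0.853 with a 95% interval of 0.707 to 1.03 (log2 difference -0.23, SE 0.13, adjusted p = 0.583 in limma).

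The phosphodiesterases that end the cyclic AMP signal differed from each other in direction, and neither passed the test. Pde3b, which is known as a gene that Foxp3 holds down in mouse regulatory T cells, had a lowest, median and highest log2 value of 6.51, 6.85 and 7.29 in NOD and of 6.66, 7.29 and 8.02 in NOD.Drak2-/-. In NOD.Drak2-/- 5 of 6 arrays lay above the NOD mean, replicates 3, 4 and 7 lay above all NOD arrays, and replicate 1 lay among the lowest. The means were 6.86 ± 0.30 and 7.34 ± 0.46 (SD, n = 6 each), a 1.40-fold difference with a 95% interval of 1.05 to 1.87 (log2 difference 0.49, SE 0.20, unadjusted p = 0.0259, adjusted p = 0.504 in limma). Its log2 difference was 0.35 without NOD.Drak2-/- replicate 7 and 0.62 without NOD.Drak2-/- replicate 1. The lowest of the alternatives was 0.28, with the replicate block on the shared numbers 1 to 5. The highest was 0.69, without NOD.Drak2-/- replicates 1 and 2.

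Pde4b, one of the cyclic AMP-specific Pde4 enzymes, had a lowest, median and highest log2 value of 9.08, 9.39 and 9.74 in NOD and of 8.83, 9.34 and 9.63 in NOD.Drak2-/-. In NOD.Drak2-/- 3 arrays lay above and 3 below the NOD mean. The means were 9.41 ± 0.22 and 9.29 ± 0.28 (SD, n = 6 each), a ratio of 0.920 with a 95% interval of 0.745 to 1.14 (log2 difference -0.12, SE 0.14, adjusted p = 0.805 in limma). The log2 difference was -0.03 without NOD.Drak2-/- replicate 4, -0.06 without NOD replicate 1 and -0.19 without NOD replicate 6 or without NOD.Drak2-/- replicate 1, and it was -0.05 with each array centred on its median. The intervals of the 7 members together leave room for ratios between 0.634 and 1.87, so a p that missed the threshold does not show that levels were equal.

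**Figure D2:**
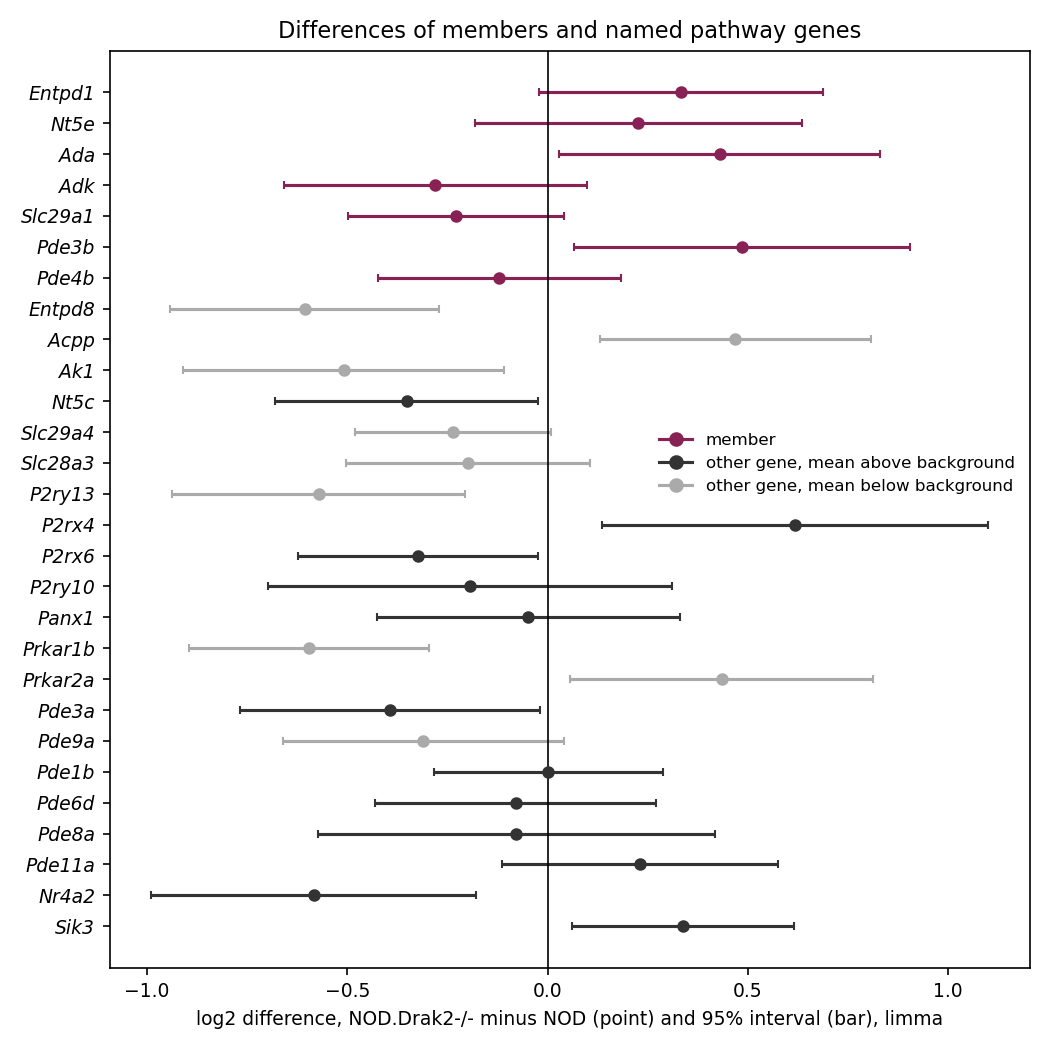
Log2 difference of NOD.Drak2-/- minus NOD (horizontal axis, points) with 95% interval from limma (bars) for the 7 members (purple) and the other named pathway genes (black where the gene's mean lies above the brightest background row, grey where below). Ada and Pde3b have intervals above 0 (from 0.03 and from 0.07), while 0 of the genes drawn passed the adjusted threshold.

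The wider pathway was described through 7 lists with 107 measured genes besides the members, of which 55 averaged above background. In limma 0 of the 107 passed the adjusted threshold in either direction, beside 0.0205% of all genes. At an unadjusted p under 0.05 there were 16 of 107 (15%, beside 9.43% of all genes), 4 being higher and 12 lower in NOD.Drak2-/-. Over all genes 3.74% were higher and 5.69% lower at that level. With each array centred on its median the split of the 107 was 9 higher and 5 lower, so it gives no direction. The median log2 difference of the 107 genes was -0.04 with 44 positive. It was 0.02 with 59 positive when each array was centred on its median, so the sign of the pooled median depends on the scaling. By list, the medians of the nucleoside transporters (-0.14, centred -0.08) and of the P2rx, P2ry and Panx1 genes (-0.15, centred -0.08) were negative under both scalings. Those of the list of extracellular enzymes (0.05, centred 0.12) and of the G protein, cyclase and effector list (0.04, centred 0.10) were positive under both. The medians of the other 3 lists changed sign.

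In the list drawn up for other extracellular nucleotide enzymes, 11 were measured and 4 averaged above background, with a median difference of 0.05. Those 4 were Entpd4, Entpd5, Entpd6 and Entpd7, and whether their proteins act outside the cell was not tested. Entpd8, another ATP-splitting ectoenzyme, differed by -0.61 (4.82 in NOD and 4.21 in NOD.Drak2-/-, adjusted p = 0.416 in limma) and the phosphatase gene Acpp by 0.47 (5.07 and 5.54, adjusted p = 0.469 in limma), both in the background range. Among 21 genes of intracellular adenosine and AMP metabolism, 17 averaged above background and the median difference was -0.02. Nt5c, a cytosolic nucleotidase, differed by -0.35 (8.53 and 8.17, adjusted p = 0.517 in limma), and the adenylate kinase gene Ak1 by -0.51 in the background range (adjusted p = 0.483 in limma).

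The 6 other nucleoside transporters had negative log2 differences, from -0.24 to -0.06, but 2 of the 6 were positive with each array centred on its median. They had 0 of 6 at an unadjusted p under 0.05 and 2 of 6 averaging above background. The 2 named by the smallest p, Slc29a4 (log2 difference -0.24, adjusted p = 0.535 in limma) and Slc28a3 (-0.20, adjusted p = 0.67 in limma), were both in the background range. The 3 other adenosine receptor genes looked for had no row named for them and were not analysed here.

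The P2rx and P2ry genes, listed as receptors for the ATP and ADP that CD39 consumes, gave 15 measured genes together with the release channel gene Panx1. What each receptor binds was not tested, so the list may hold receptors for other molecules. Of the 15 genes, 4 averaged above background. Their median log2 difference over the whole list was -0.15 with 12 negative differences, or 8 with each array centred on its median. The ATP-gated channel gene P2rx4 differed by 0.62, from 5.89 ± 0.31 to 6.51 ± 0.57 (SD, n = 6 each), with 6 of 6 NOD.Drak2-/- arrays above the NOD mean (adjusted p = 0.483 in limma). Its NOD level was at background, and the log2 difference was 0.25 without NOD.Drak2-/- replicates 1 and 2. P2ry13, an ADP receptor gene, differed by -0.57 in the background range (3.90 and 3.33, adjusted p = 0.469 in limma). The others above background were the ATP-gated channel gene P2rx6, which differed by -0.32 (6.46 and 6.14, adjusted p = 0.517 in limma), P2ry10 by -0.19 (8.72 and 8.53, adjusted p = 0.811 in limma) and Panx1 by -0.05 (8.59 and 8.54, adjusted p = 0.945 in limma). With 1 array left out the P2ry10 difference ran from -0.37 (without NOD replicate 6) to -0.07 (without NOD.Drak2-/- replicate 5).

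Downstream of the receptors, the stimulatory G protein, adenylyl cyclases and cyclic AMP effectors gave 24 measured genes, 10 above background, with a median difference of 0.04. The genes with the smallest p encode regulatory subunits of protein kinase A. Prkar1b differed by -0.60 in the background range (5.21 and 4.62, adjusted p = 0.393 in limma) and Prkar2a by 0.43 (5.60 and 6.03, adjusted p = 0.504 in limma), around the level of the brightest background row. CREB factors, their coactivators and cyclic AMP response genes gave 14 measured genes, 13 above background, with a median difference of -0.02. Nr4a2, an immediate early nuclear receptor gene, differed by -0.58, from 8.56 ± 0.47 to 7.98 ± 0.25 (SD, n = 6 each), with 6 of 6 NOD.Drak2-/- arrays below the NOD mean (adjusted p = 0.469 in limma). Sik3, a kinase that restrains the CREB coactivators, differed by 0.34 (9.24 and 9.58, adjusted p = 0.493 in limma).

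Of 16 other genes with a Pde symbol 5 averaged above background, with a median difference of -0.06. Whether each encodes an active phosphodiesterase was not tested. Pde3a, the closest relative of Pde3b, had a lowest, median and highest log2 value of 6.13, 6.27 and 6.74 in NOD and of 5.44, 5.97 and 6.60 in NOD.Drak2-/-. Its difference of -0.39 was opposite in sign to that of Pde3b (adjusted p = 0.519 in limma), and its NOD.Drak2-/- arrays reached into the background range. Pde11a differed by 0.23, Pde6d by -0.08 and Pde8a by -0.08, with adjusted p-values of 0.661, 0.894 and 0.928 in limma. Pde1b, a calcium-dependent phosphodiesterase, was at 7.88 in both genotypes, with a 95% interval of the log2 difference from -0.28 to 0.29. Pde9a, which is specific for cyclic GMP, differed by -0.31 in the background range (adjusted p = 0.567 in limma).

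**Figure D3:**
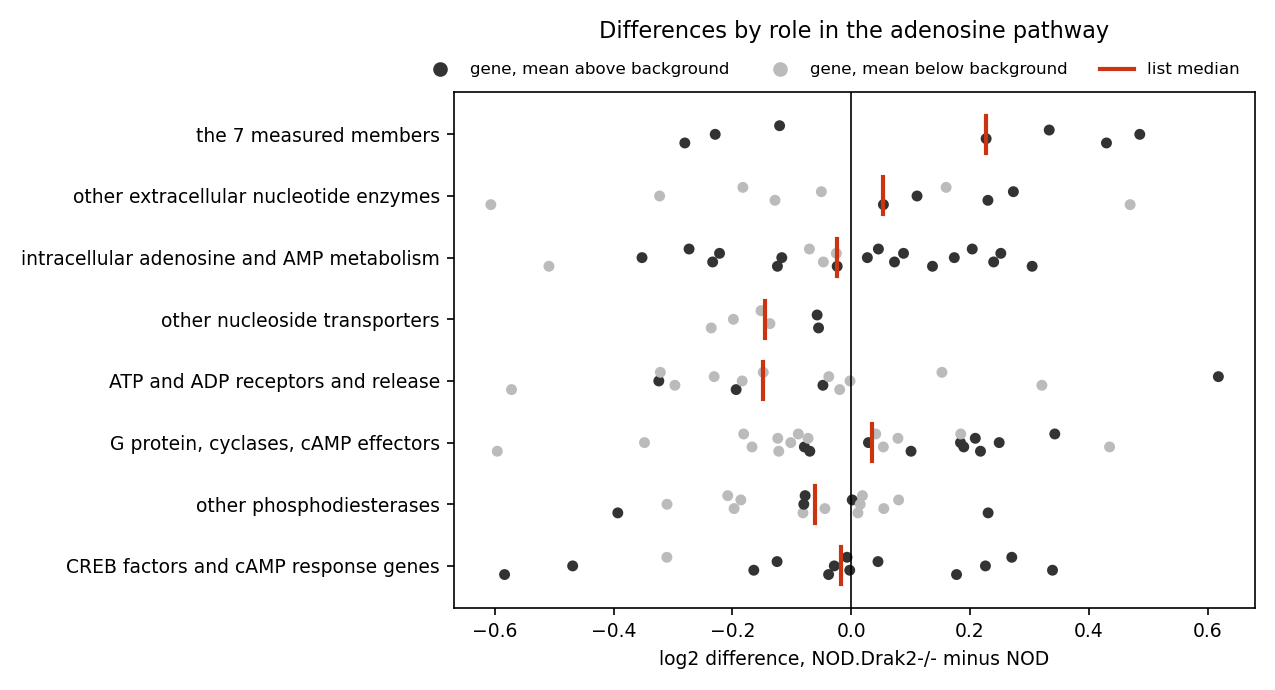
Log2 difference of NOD.Drak2-/- minus NOD (horizontal axis) of each measured gene by its role in the pathway (rows), with red bars for the median of each list and grey points for genes averaging below background. List medians of the other genes lie between -0.15 and 0.05, and that of the 7 members is 0.23, the value of Nt5e.

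Apart from genotype, no pair of members passed the test for varying together among the mice. After subtraction of each genotype's mean, Pearson's r between 2 members over the 12 arrays ran from -0.60 to 0.73 over 21 pairs. Of the pairs 0 passed after Benjamini-Hochberg adjustment in a two-sided permutation test within genotypes (smallest adjusted p = 0.16), and 3 pairs were at an unadjusted p under 0.05. The consecutive enzymes Entpd1 and Nt5e had an r of 0.08 (Spearman's rho 0.01, permutation p = 0.812 and 0.991).

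Nt5e and Pde4b had the highest r, 0.73 (permutation p = 0.0152, adjusted p = 0.16; Spearman's rho 0.68, permutation p = 0.0385, adjusted p = 0.405). It was 0.69 within NOD, 0.80 within NOD.Drak2-/- and 0.63 without NOD.Drak2-/- replicates 2 and 4, the arrays farthest from the median of Nt5e. Slc29a1 and Pde3b also had an r of 0.73 (permutation p = 0.0147, adjusted p = 0.16; Spearman's rho 0.73, permutation p = 0.0147, adjusted p = 0.309), with 0.60 within NOD, 0.79 within NOD.Drak2-/- and 0.58 without NOD replicate 3 and NOD.Drak2-/- replicate 1. Adk and Pde4b, the pair whose r differed most between the genotypes, had 0.91 within NOD and -0.81 within NOD.Drak2-/-. Over both genotypes their r was 0.15 (permutation p = 0.641, adjusted p = 0.898). Within NOD both genes had a negative r with the brightest background row of the array (-0.96 for Adk, -0.89 for Pde4b). Within NOD.Drak2-/- that r was -0.46 for Adk and 0.83 for Pde4b. The difference between the genotypes and the part of the background row in it were not tested. Entpd1 and Ada had an r of 0.64 (permutation p = 0.0455, adjusted p = 0.319; Spearman's rho 0.59, permutation p = 0.0647, adjusted p = 0.438), with 0.56 within NOD, 0.78 within NOD.Drak2-/- and 0.29 over both genotypes without NOD replicates 1 and 3. Over all genes averaging above background, those most alike to Entpd1 in the same measure over the 12 arrays were Mcat (r = 0.85), Ciapin1 (0.85) and Smarcad1 (0.83), and those most alike to Nt5e were Rbm18 (0.90), Pik3r3 (0.89) and Tgfbr3 (0.88), each picked as the highest of 8127 genes.

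The brightness of the background rows, looked at beside the members after their values were seen, differed among arrays, and no member's correlation with it passed after adjustment. The brightest background row ran from 5.51 to 6.06 in NOD and from 5.55 to 6.77 in NOD.Drak2-/-, where replicates 1 and 2 (6.52 and 6.77) lay above all other arrays. Those replicates had the highest Nt5e values of the 12 arrays, 8.61 and 9.09, and the lowest Slc29a1 values, replicate 1 at 6.80, while NOD.Drak2-/- replicate 4, with the dimmest background row of its group, had the lowest Nt5e value. After subtraction of genotype means, r with the background row was 0.67 for Nt5e (permutation p = 0.0699) and 0.15 without these replicates, so it rested on them. Spearman's rho for Nt5e was 0.37 (permutation p = 0.298), and r was -0.54 within NOD and 0.85 within NOD.Drak2-/-. For Slc29a1 r over both genotypes was -0.66 (permutation p = 0.0422) and rho was -0.69 (permutation p = 0.0233). For Adk r over both genotypes was -0.53 (permutation p = 0.0324) and rho was -0.66 (permutation p = 0.026). Without those replicates r was -0.43 for Slc29a1 and -0.89 for Adk. Within NOD and within NOD.Drak2-/- r was -0.19 and -0.84 for Slc29a1, and -0.96 and -0.46 for Adk. After adjustment over the 7 members the smallest p was 0.142 for r and 0.0911 for rho.

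Without NOD.Drak2-/- replicates 1 and 2 the log2 difference of Nt5e was -0.01 (adjusted p = 0.994 in limma) in place of 0.23, and that of Slc29a1 was -0.11 in place of -0.23. That of Pde3b was 0.69 in place of 0.49 (adjusted p = 0.498 in limma), that of Entpd1 was 0.34 in place of 0.33, that of Ada was 0.34, that of Adk -0.22 and that of Pde4b -0.25. With the background row as a covariate in all 12 arrays, the log2 differences were 0.07 for Nt5e, -0.16 for Adk, -0.14 for Slc29a1, -0.18 for Pde4b, 0.60 for Pde3b, 0.32 for Ada and 0.28 for Entpd1. The part of the background rows in these differences was not tested further. In both settings 0 of 7 members passed in limma, and 1 of 7, Pde3b, was at an unadjusted p under 0.05.

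**Figure D4:**
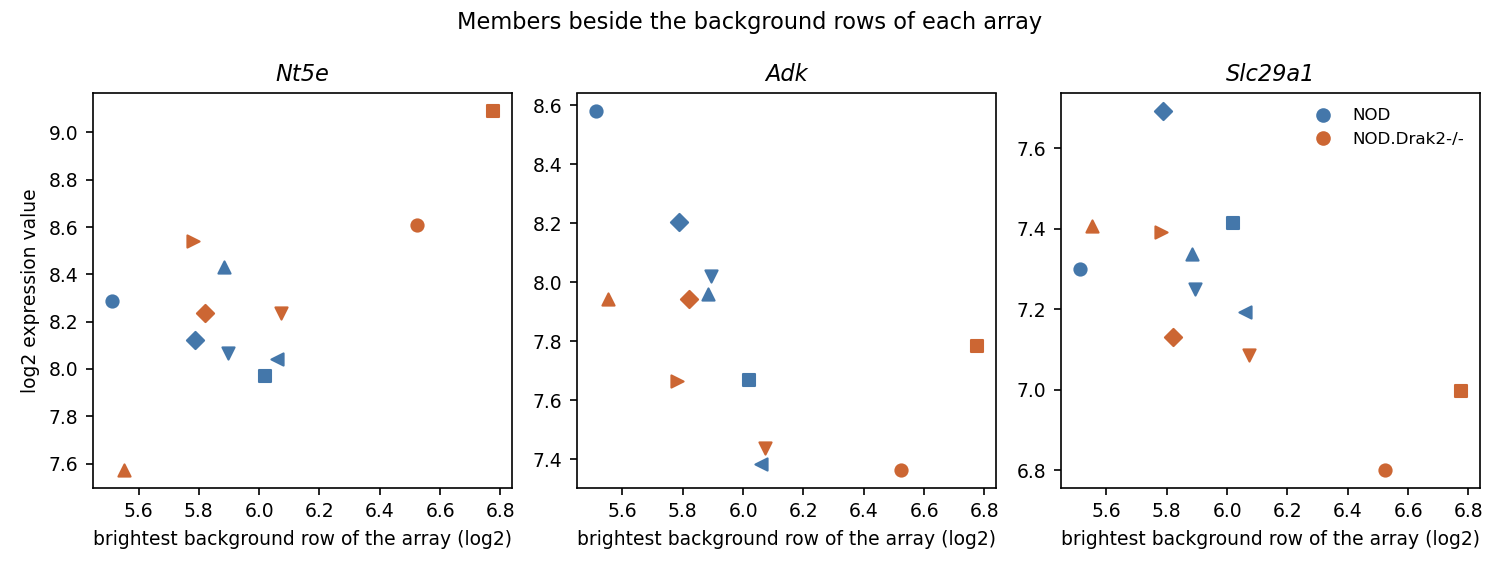
Log2 expression value (vertical axes) of Nt5e, Adk and Slc29a1 against the brightest background row of the same array (horizontal axes, log2) in 6 NOD and 6 NOD.Drak2-/- arrays, with a marker shape per replicate number as in the plot of member values. The NOD.Drak2-/- arrays at 6.52 and 6.77 lie at the top for Nt5e and at the bottom for Slc29a1.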

How the data were processed

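Per the labels' protocols, regulatory T cells were sorted by flow cytometry, RNA was taken with a column kit, and 125 ng was made into biotin-labelled cDNA with a whole-transcript kit. The authors' deposited table holds log2 values, 1 column per array; RMA and oligo appear, without versions, among the tools of the submitters' processing notes. Of 29129 rows, 19572 had 1 gene symbol in the platform annotation; the brightest row per gene was kept, leaving 19505 genes, all tested without a filter. Each of the 7 measured members had 1 row. The genotypes were compared with limma 3.58.1 in R 4.3.3 (lmFit, eBayes, no covariate, Benjamini-Hochberg, threshold 0.05). Correlations used 100000 permutations within genotype (numpy 2.4.6 in Python 3.11.15). Arrays carry no counts, so their number limits precision. On simulated data for NOD.Drak2-/- against NOD with 50 genes changed by each size among 19505, limma recovered 34% of log2 differences of 0.5 and 88% of 1. It also called 4 unchanged genes. The simulated noise was independent between genes, and sizes went up to 2, while only 4 genes passed in the data. The members had a median pooled SD of 0.34, beside 0.25 for all genes. These rates can therefore be too high for the members.

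Members and lists were chosen with earlier results of these data known. Named genes are all members; per list the genes past the threshold or else those with the 2 smallest p-values; phosphodiesterases and receptors above background; and the 3 genes most alike to Entpd1 and to Nt5e. Alternatives changed the scaling, the filter, the variance model, array weights, the row per gene, covariates and the arrays used. The replicates are separate mice per the labels, and replicate numbers 1 to 5 are shared by the genotypes. Deviations of same-numbered arrays correlated between -0.18 and 0.09, but differently numbered arrays were not set beside them. Whether a shared number marks a pairing is therefore not settled, and the main fit was unpaired.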

Additional observations from a re-analysis of the deposited data

How the results depend on the processing

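With limma, or its fit without a moderated variance, 0 of the 7 members and 0 of the 107 other pathway genes passed in each of the 23 alternatives; at an unadjusted p under 0.05 the members numbered 1 to 4 with 1 array left out (4 without NOD.Drak2-/- replicate 4, and 1 each without replicates 1 and 3 of NOD and 1, 2 and 7 of NOD.Drak2-/-, taken singly) and 0 to 3 in the other settings, 0 of them with the ordinary equal-variance test and with the replicate block on the shared numbers 1 to 5. Of all genes, 4 passed, and 1 to 2 did with any 1 array left out. The count was 0 with the ordinary equal-variance test (1722 at an unadjusted p under 0.05) and 0 with the replicate block (1519). It was 1 with the background row, the B cell markers or the myeloid markers as a covariate, and 2 without the arrays with the brightest background rows. The background row settings were added after the data were seen. Centring arrays on their medians turned the 730 positive and 1110 negative differences at an unadjusted p under 0.05 into 1423 and 531, so that split gives no direction. Signs turned in 21 of 635 gene differences, for 5 of 28 genes, and the cause was not tested. Nt5e turned to -0.0064 without the arrays with the brightest background rows. Pde1b turned to -0.012 with array weights and -0.069 with the replicate block. Panx1 turned to 0.018 with centred arrays, 0.0468 without the arrays with the brightest background rows and 0.058 with the background row as a covariate. With 1 array left out, the range was -0.0862 to 0.0568 for Pde1b, -0.1671 to 0.0137 for Pde6d, -0.2099 to 0.0613 for Pde8a and -0.1658 to 0.0931 for Panx1. Pde8a was 0.2062 without the arrays with the brightest background rows and 0.1618 with the background row as a covariate. Of 42 pair correlations 4 turned: Entpd1 and Pde4b (0.19), Nt5e and Adk (0.22) and Ada and Pde4b (0.35) without the arrays farthest from the median, and Nt5e and Adk (0.0576) with centred arrays. With genes in the background range, signal over background limits what a difference can show.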
